A study of Xenopus laevis with 11 samples.

Results

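Mitochondrial ribosomal protein genes, the nuclear genes with symbols of the form mrpl or mrps followed by a number, were described in the open chromatin of stage 9 Xenopus laevis animal caps. The rule found 93 protein-coding gene copies among the 34461 protein-coding genes placed on the 18 chromosomes of the v10.1 assembly. The symbol mrpl36.L also has this form but is annotated as a lncRNA and was left out. X. laevis is an allotetraploid whose L and S subgenomes descend from different parental species, and corresponding L and S genes are called homeologs. The 93 copies comprised 54 on L and 39 on S chromosomes and stood for 73 different genes.

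Mitochondria carry their own ribosome, which translates the few proteins encoded by mitochondrial DNA, nearly all of them subunits of the respiratory chain and the ATP synthase. The RNA of this ribosome is transcribed inside the organelle, whereas its proteins are encoded in the nucleus, made in the cytosol and imported. Some of these proteins have relatives in the bacterial ribosome and others occur in mitochondria only. The egg passes on a large store of mitochondria to the embryo, and their genes are usually regarded as housekeeping genes.

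ATAC-seq uses the Tn5 transposase to cut and tag DNA that is not packed into nucleosomes. The animal cap is the pluripotent ectoderm of the blastula, explanted here from wild-type embryos of the strain Xla.NXR-WTNXR, with 2 caps per reaction. The labels name 6 libraries from 4 replicates of stage 9, the stage in which transcription of the zygotic genome takes hold, and 5 libraries from 3 replicates of stage 8. The question of the study is what each subgenome contributes to this activation, and the comparison made here is between L and S copies and between these genes and other genes. The values come from 1 list of peaks called on all stage 9 libraries pooled, stage 8 was not analysed here, and no value has a replicate error.

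The list held 58215 peaks on the chromosomes. A peak is an interval in which short fragments piled up over a control, and its summit is the highest point. Depth is given below as the number of fragments that covered the summit, with an exact Poisson 95% interval that covers counting error only. The weakest peaks of the list had 5 fragments and the median peak had 9, so a gene without a called peak was not detectable at this depth and is not shown to be closed. Reads that fit L and S equally well were removed by the authors' filter on mapping quality, which lowers coverage where the copies are nearly identical. Marker genes were looked at beside the tissue label. An end peak lay at 21 of 25 copies of genes of pluripotent or early ectoderm (84.0%), at 9 of 13 of vegetal endoderm genes (69.2%) and at 4 of 19 of genes of late organs (21.1%). The share of all protein-coding genes was 47.8%. The 95% intervals for ectoderm (65.3 to 93.6) and vegetal endoderm (42.4 to 87.3) overlapped, and these counts do not tell the cap from vegetal cells.

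Most mitochondrial ribosomal protein genes had open chromatin at an end of the gene. A peak with its summit within 1 kb of either gene end, called an end peak here, was found at 69 of the 93 copies (74.2%, Wilson 95% interval 64.5 to 82.0), where 47.8% of all protein-coding genes had one. The share was 60.9% among the 22412 protein-coding genes with a name rather than a LOC number, and all 93 copies have a name. Genes of the cytosolic ribosome stood at 106 of 137 (77.4%) and subunits of the respiratory chain at 93 of 125 (74.4%), both within the interval of the mitochondrial ribosomal proteins. Strand was not used here, so the start of a gene could not be told from its far end, and exon, intron and UTR were not assigned.

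**Figure D1:**
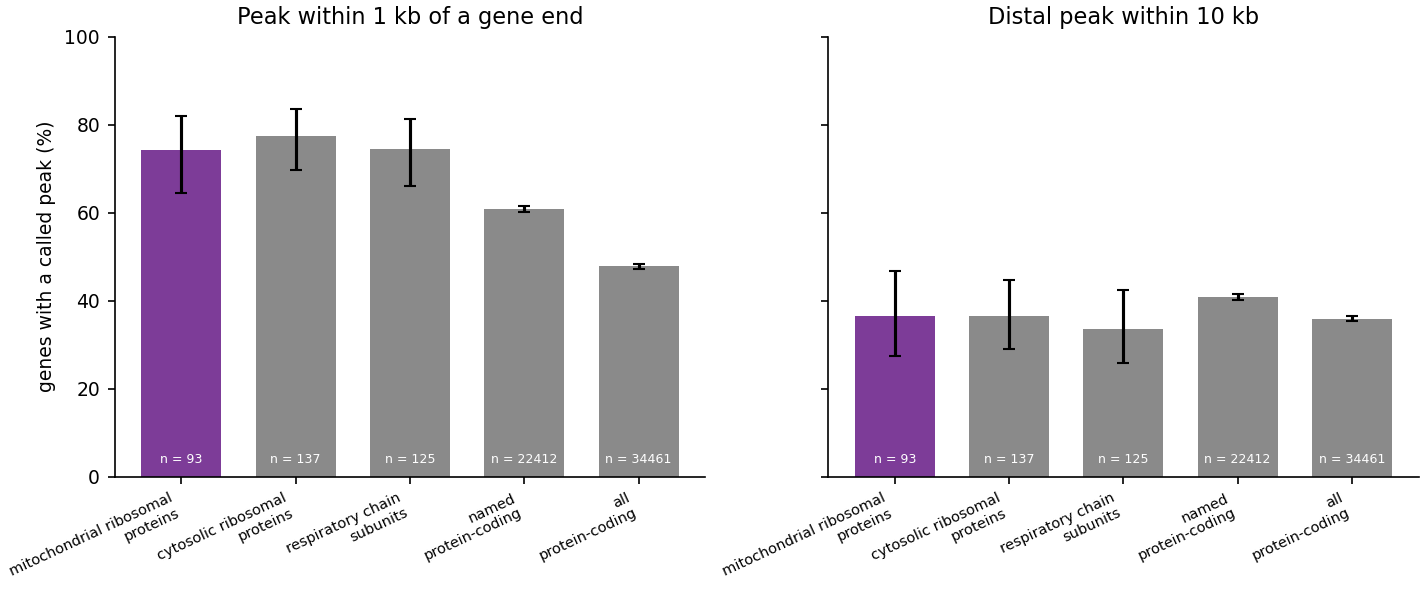
Share of gene copies (%) with a peak within 1 kb of a gene end (left) and with a distal peak within 10 kb (right) for mitochondrial ribosomal proteins (purple) and 4 other sets of genes (grey), with n in each bar and Wilson 95% intervals as error bars. Mitochondrial ribosomal protein genes stand at 74.2% and 36.6%, and all protein-coding genes at 47.8% and 35.9%.

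Whether an end peak was present differed little between the parts of the ribosome. Of the large subunit, which forms the peptide bond, 45 of 58 copies had an end peak (77.6%, 65.3 to 86.4), and of the small subunit, which reads the messenger RNA, 24 of 34 did (70.6%, 53.8 to 83.2). The symbols mrps30 and mrps18a were counted with the large subunit, where their proteins sit. Proteins that occur in mitochondria only stood at 29 of 37 (78.4%, 62.8 to 88.6) and those with bacterial relatives at 40 of 55 (72.7%, 59.8 to 82.7), and the intervals overlapped. mrps36.S, whose protein is a part of the oxoglutarate dehydrogenase complex, was counted apart and had no end peak. At 31 copies there was more than 1 end peak (33.3%), against 24.6% of named protein-coding genes. These were 23 of the 58 large subunit copies (39.7%) and 8 of the 34 small subunit copies (23.5%). By origin they were 17 of the 37 copies for proteins of mitochondria only (45.9%) and 14 of the 55 with bacterial relatives (25.5%). The highest number was 4, at mrpl53.L.

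The end peaks were of usual height. The strongest end peak of a copy had a median of 13 fragments at the summit (interquartile range 9 to 16, range 6 to 39), and that of all protein-coding genes had 14. The median fold enrichment over the local background was 7.42 at mitochondrial ribosomal protein genes and 7.78 over all genes with an end peak. The median width was 225 bp, against 249 bp over all genes. Under 10 fragments supported 20 of the 69 strongest end peaks (29.0%), against 20.9% over all genes.

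mrps26.L, which encodes a small subunit protein found in mitochondria only, had the strongest end peak, with 39 fragments (27.7 to 53.3), a 19.4-fold enrichment and a width of 1290 bp. It lies at 1L:182851-184140 with its summit 801 bp outside the gene, which spans 1L:175927-183064. No end of another protein-coding or lncRNA gene lies within 1 kb of that summit. A weaker end peak of this copy had 10 fragments, 712 bp inside the opposite end. mrpl48.S, of the large subunit, came next with 31 fragments (21.1 to 44.0) and a 19.7-fold enrichment at 2S:165582870-165583561. Its summit was 25 bp outside the gene, in the 190 bp between mrpl48.S and ndufc2.S, which encodes a subunit of respiratory complex I. mrpl11.S, a protein of the stalk base where translation factors bind, had 27 fragments (17.8 to 39.3) at 4S:1220739-1221086, 16 bp outside the gene. These 3 peaks were the only end peaks of the group with more than 24 fragments.

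mrpl20.L, of the large subunit, and mrps21.L, of the small subunit, had 24 fragments each (15.4 to 35.7) at 7L:96615185-96615431 and 8L:118944229-118945299. mrps30.L had 23 at 1L:211698992-211699399, and mrps12.S, a protein of the decoding centre, had 22 at 8S:86318470-86318798. mrpl19.S and mrps21.S had 21 each, at 5S:133399287-133399665 and 8S:95916779-95917579. mrps30.S had 19 at 1S:183029436-183029860. These 10 strongest copies included large and small subunit proteins and copies of both subgenomes, and their counting intervals ran into each other from one to the next.

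Summits gathered close to the gene ends. The 69 copies had 107 end peaks, 105 of them distinct intervals, of which 53 had the summit inside the gene and 54 outside. The median distance of the summit from the gene end was 169 bp, and 43 summits lay within 100 bp and 90 within 500 bp. For the strongest end peak of each copy the median distance was 87 bp, against 98 bp over all protein-coding genes, and 53.6% lay within 100 bp, against 50.8%. End peaks at both ends were found at 5 copies, and the share over all protein-coding genes was not computed.

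**Figure D2:**
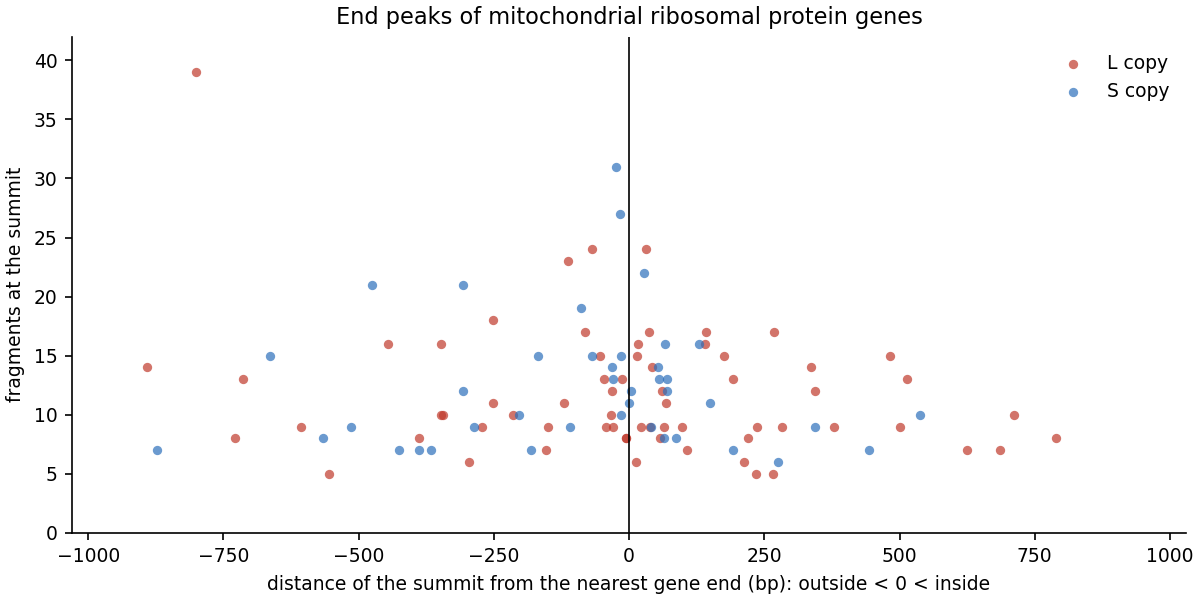
Each point is 1 end peak of a mitochondrial ribosomal protein gene, L copies in red and S copies in blue, with the distance of its summit from the nearer gene end (bp, negative outside the gene) against the fragments at the summit. Points crowd around 0, and the highest one, 39 fragments at 801 bp outside the gene, belongs to mrps26.L.

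Many of these genes stood close to another gene, and the end peak often lay on the side of that gene. Another gene, protein-coding or lncRNA, ended within 1 kb of either end of 47 of the 93 copies (50.5%), against 16.0% of all protein-coding genes, 16.6% of named ones, 20.4% of cytosolic ribosomal protein genes and 35.2% of respiratory chain genes. The median gap between the ends was 105 bp and was at most 100 bp in 23 copies. L copies had such a neighbour in 25 of 54 (46.3%) and S copies in 22 of 39 (56.4%). The share was 44.8% in the large and 61.8% in the small subunit.

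An end peak was called at 38 of the 47 copies with a close neighbour (80.9%) and at 31 of the 46 without one (67.4%). Over all protein-coding genes the shares were 64.5% with and 44.6% without a neighbour. That background includes genes with LOC numbers, whereas all 93 copies have a name. Named protein-coding genes stood at 60.9% as a whole, and their shares with and without a neighbour were not computed. How far the group stands above named genes of either kind was therefore not tested. In 35 of the 38 copies (92.1%) the strongest end peak lay at the end that faced the neighbour, as it did in 81.6% of all protein-coding genes with a close neighbour and an end peak. A peak within 1 kb of ends of both genes counts for both, and which of them it belongs to was not tested.

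**Figure D3:**
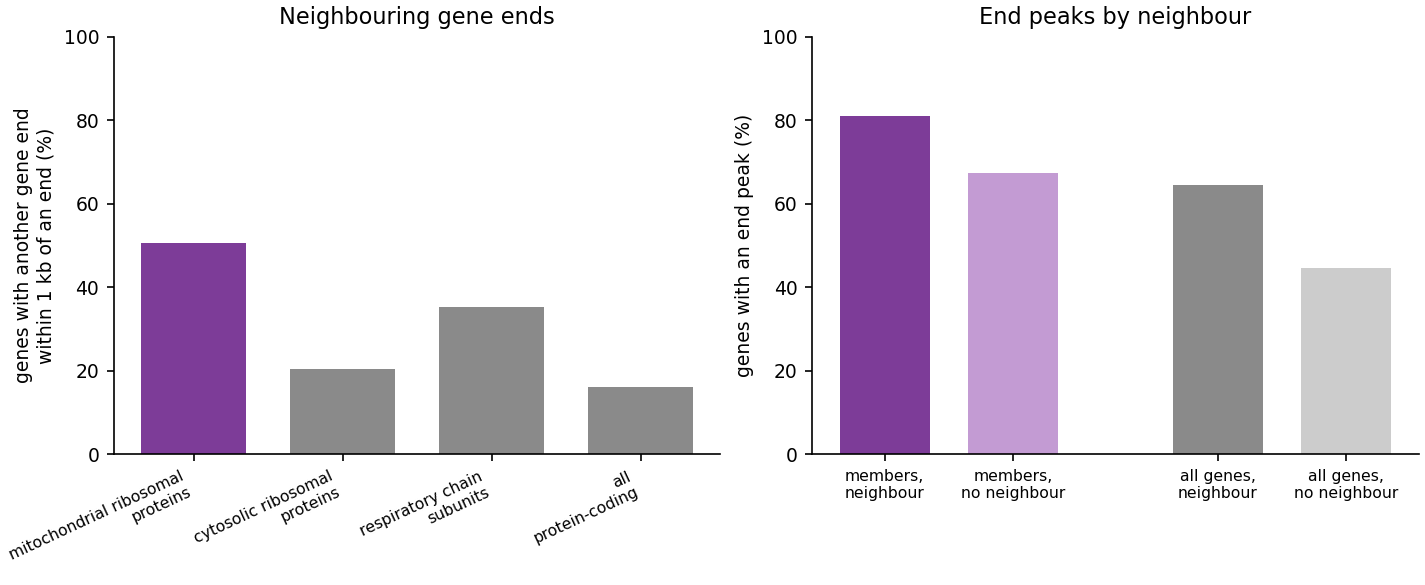
Left, share of genes (%) with another gene end within 1 kb of an end, for mitochondrial ribosomal proteins (purple) and other sets (grey). Right, share of genes (%) with an end peak, with and without such a neighbour, for mitochondrial ribosomal proteins (members, 80.9% and 67.4%) and all protein-coding genes (64.5% and 44.6%). The latter include genes with LOC numbers, whereas all members have a name.

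Several neighbours are themselves genes of mitochondria. mrps11 and mrpl46, a small and a large subunit protein, stood beside each other on both subgenomes with ends 10 bp apart on 3L and 7 bp apart on 3S. mrpl47.L lay 177 bp from ndufb5.L and mrpl48.S 190 bp from ndufc2.S, both subunits of complex I. mrpl43.L lay 397 bp from twnk.L, the helicase that unwinds mitochondrial DNA, and mrps27.L lay 20 bp from ptcd2.L, a mitochondrial RNA-binding protein. Others belong to the cytosol or nucleus. mrpl32 stood beside psma2, a subunit of the proteasome, at 342 bp on L and 246 bp on S, mrpl49.L stood 106 bp from fau.L, which encodes a cytosolic ribosomal protein, and mrpl35.L stood 73 bp from polr1a.L, the largest subunit of RNA polymerase I. In 7 of the 20 genes with both homeologs the same named neighbour was present at both copies. These were dpp3 at mrpl11, psma2 at mrpl32, mrps11 and mrpl46 at each other, ppp1r10 at mrps18b, gkap1 at mrps18c and mif4gd at mrps7. In this count mrps11 and mrpl46 stand at the same locus. The share over all homeolog pairs was not computed, so the count cannot be read as a trait of the group.

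At 15 copies the summit of the strongest end peak was nearer to the neighbour's end than to the member's own. mrpl19.S shared its 21-fragment peak with gcfc2.S, 475 bp outside mrpl19.S, and had a second peak of 16 fragments 66 bp inside its own end. mrpl2.L had 18 fragments 252 bp outside the gene towards klc4.L, a kinesin light chain. mrpl55.L had 16 fragments towards guk1.L, the guanylate kinase, and mrpl43.L had 14 fragments 891 bp outside the gene towards twnk.L. Both copies of mrpl32 were of this kind, with 16 fragments for L and 9 for S on the side of psma2. The others were mrpl27.L beside the endonuclease gene eme1.L, mrpl47.L beside ndufb5.L, mrps16.L beside vps13d.L, mrps7.S beside the Golgi adaptor gene gga3.S, mrps18b.S beside ppp1r10.S, mrps11.L beside mrpl46.L, and mrpl41.S, mrps22.L and mrps25.L beside genes with LOC numbers. With only the peaks nearest to the gene's own end counted, 58 copies kept an end peak (62.4%, against 44.9% of all protein-coding genes under the same rule).

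Fewer of these genes had both homeologs under 1 symbol than is usual. Of the 73 genes, 20 had an L and an S copy (27.4%), 34 had an L copy only (46.6%) and 19 an S copy only (26.0%). Among all 14439 genes named with an L or S suffix 53.8% had both, as did 70.0% of 80 cytosolic ribosomal protein genes and 68.9% of 74 respiratory chain genes. This count rests on symbols. For 44 of the 53 single copies the flanking genes could be found within 500 kb of each other on the other subgenome, and in 20 of these places 1 or more genes with a LOC number lay between them, which can include a second copy under another name. In the other 24 places none did. Single copies had an end peak in 40 of 53 (75.5%, 62.4 to 85.1), against 56.6% of named genes not in pairs. Copies in pairs had one in 29 of 40 (72.5%, 57.2 to 83.9), an interval that holds the 62.8% of all genes in pairs.

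L and S copies had end peaks equally often, at 40 of 54 (74.1%, 61.1 to 83.9) on L and 29 of 39 (74.4%, 58.9 to 85.4) on S. Over all protein-coding genes the shares were 46.7% on L and 49.4% on S. Both copies had an end peak in 10 pairs (50.0%, 29.9 to 70.1), against 52.9% of the 7759 homeolog pairs of the genome. The L copy alone had one in 3 pairs (15.0%, against 11.0%), the S copy alone in 6 (against 8.69%) and neither in 1 (5.00%, against 27.4%). The copies were in the same state in 55.0% of these pairs and in 80.3% of all pairs. Both this figure and the balance of L and S depended on which peaks were counted. With a −log10 q of at least 10, 14 of the 20 pairs were alike, against 75.9% of all pairs, and with fold enrichment at or above the median 15 were, against 75.5%. With only the peaks nearest to the gene's own end, 6 pairs were alike, against 77.9%, and L alone and S alone had 7 pairs each. With a limit of 2 kb, 13 pairs were alike (65.0%, against 80.5%). L alone and S alone then had 3 and 4, against 11.0% and 8.48% of all pairs. The 20 pairs are few, and mrpl46 and mrps11 count as 2 of them while sharing 1 locus.

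**Figure D4:**
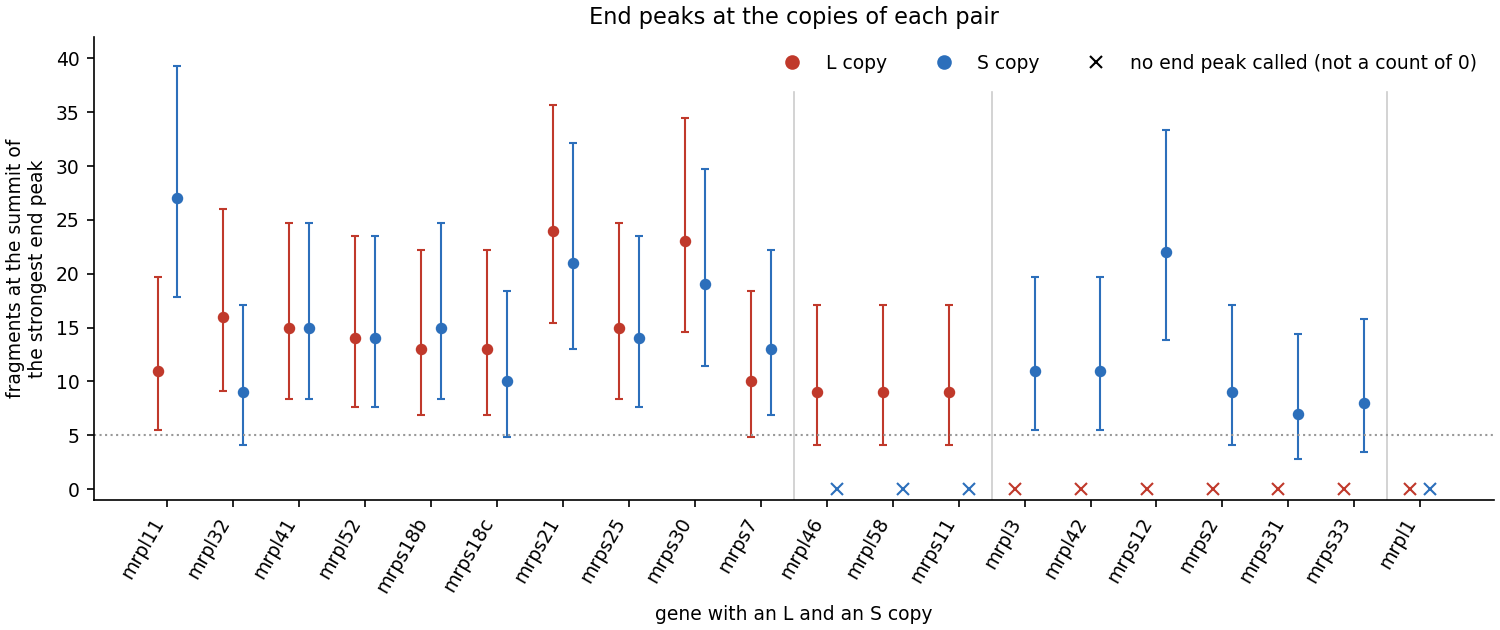
Fragments at the summit of the strongest end peak for the L (red) and S (blue) copy of each of the 20 pairs, with Poisson 95% intervals. Crosses mark copies with no end peak called, which is not a count of 0, and the dotted line marks 5 fragments, the fewest of any called peak. Pairs with both, L alone, S alone and neither stand from left to right, and the intervals overlap in each of the 10 pairs with both.

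In 10 pairs both copies had an end peak. The L and S copies had 15 and 15 fragments at mrpl41, 14 and 14 at mrpl52, 15 and 14 at mrps25, 24 and 21 at mrps21 and 23 and 19 at mrps30. They had 13 and 15 at mrps18b, 13 and 10 at mrps18c, 10 and 13 at mrps7 and 16 and 9 at mrpl32. The widest gap was at mrpl11, with 11 fragments for L (5.49 to 19.7) and 27 for S (17.8 to 39.3). The fold enrichment there was 5.82 for L and 13.6 for S. The counting intervals of L and S overlapped in 10 of 10 pairs, but the intervals are wide and overlap does not show equal height. A difference in height between the copies was not tested.

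The S copy alone had an end peak at mrps12, mrpl3, mrpl42, mrps2, mrps33 and mrps31. mrps12 differed most. mrps12.L had no peak within 10 kb and its nearest one lay 21255 bp away, whereas mrps12.S had 22 fragments (13.8 to 33.3) 27 bp inside its end. The end of fbxo27.S lies 20 bp from that end of mrps12.S, so the peak counts for both genes. mrpl3, a core protein of the large subunit, had 11 fragments (5.49 to 19.7) at the S copy and its nearest L peak 31377 bp away. mrpl42.S had 11 fragments with the summit on the annotated end of the gene, at 3S:91449968-91450192, and the nearest peak of mrpl42.L lay 1095 bp inside the gene with 8 fragments, just beyond the limit of 1 kb. mrps2, which has a bacterial relative, had 9 fragments at the S copy and its nearest L peak 28912 bp away. mrps33.S had 8 fragments and mrps33.L had its nearest peak at 1755 bp, with 7. mrps31.S had 7 fragments and the nearest peak of mrps31.L was 13113 bp away. Apart from mrps12, these peaks had 7 to 11 fragments, near the floor of the list.

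The L copy alone had an end peak at mrpl46, mrps11 and mrpl58. The adjoining genes mrpl46.L and mrps11.L shared both of their end peaks, at 3L:116166907-116166998 and 3L:116167213-116167337, with 9 fragments each (4.12 to 17.1). On 3S the nearest peak lay 179177 bp from mrpl46.S and 185146 bp from mrps11.S. mrpl58, a peptidyl-tRNA hydrolase built into the large subunit that frees stalled ribosomes, had 9 fragments at its strongest end peak on L. mrpl58.S had its nearest peak at 5467 bp, with 14 fragments. At mrpl1, of the large subunit, neither copy had an end peak, and the nearest peaks lay 5953 bp from mrpl1.L with 5 fragments and 3323 bp from mrpl1.S with 16.

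End peaks were missing at 24 copies in all, 11 in pairs and 13 with 1 copy, and in 12 of the 24 the nearest peak was over 10 kb away. How often this holds among all protein-coding genes without an end peak was not computed. Among single copies the nearest peak lay furthest from mrps36.S (220736 bp), mrps5.L (218273 bp), mrpl22.L (85014 bp), mrps10.S (40511 bp), mrps24.S (28890 bp) and mrpl17.S (22617 bp). It lay 7314 bp from mrps14.S, 7034 bp from mrpl21.L, 3320 bp from mrpl40.S, 2818 bp from mrpl4.L and 1761 bp from mrps35.L. mrpl14.L had a peak of 6 fragments 1517 bp inside the gene, and mrpl45.L had one of 24 fragments at 4444 bp, at the end of npepps.L, an aminopeptidase gene. A single-copy gene without an end peak was thus found in both subunits, among them mrps5, mrps10, mrps14, mrpl4, mrpl14 and mrpl22, whose proteins have bacterial relatives. By chromosome the share of copies with an end peak was lowest on 3L, at 3 of 8, and 3S, at 2 of 5. The share of all genes on these chromosomes is not given here, so this cannot be read as a trait of the group. The counts are small, and mrpl46 and mrps11 share 1 locus on each of the chromosomes.

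Gene length differed from the background. The median length was 7480 bp, against 17192 bp for all protein-coding genes and 21312 bp for named ones. Among genes of at most 5 kb, 16 of 23 copies had an end peak (69.6%), against 52.0% of named genes of that length. From 5 to 10 kb the count was 32 of 37 (86.5%, against 61.1%), from 10 to 20 kb 13 of 20 (65.0%, against 62.7%) and over 20 kb 8 of 13 (61.5%, against 61.5%). The share stood above that of named genes in the classes up to 10 kb and was close to it in the longer ones. The classes hold only 13 to 37 copies and have no intervals here, so a dependence on length was not tested.

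Distal peaks, whose summits lay over 1 kb from all annotated ends of protein-coding and lncRNA genes, were as common at mitochondrial ribosomal protein genes as elsewhere. At least 1 lay within 10 kb of 34 of 93 copies (36.6%, 27.5 to 46.7), against 35.9% of all protein-coding genes and 40.9% of named ones. The share was 36.5% at cytosolic ribosomal protein genes and 33.6% at respiratory chain genes. The 61 distal peaks had a median of 8 fragments, the same as distal peaks in general, and at most 19, and 46 lay outside the gene. The large subunit had them at 23 of 58 copies (39.7%) and the small subunit at 11 of 34 (32.4%).

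Counted over all called peaks, distal peaks were more frequent at L than at S copies, and the gap narrowed among stronger peaks. They lay at 27 of 54 L copies (50.0%, 37.1 to 62.9) and 7 of 39 S copies (17.9%, 8.98 to 32.7). The shares over all protein-coding genes were 35.9% on L and 35.9% on S. Among named genes, the closer background, they were 41.7% on L, within the interval of the L copies, and 39.9% on S, above that of the S copies. There were 0.889 distal peaks per L copy and 0.333 per S copy, against 0.768 and 0.735 over all protein-coding genes. Peaks at the ends of other genes within 10 kb were even, with 0.463 per L copy and 0.462 per S copy. Single copies showed the same order, 19 of 34 on L (55.9%, 39.5 to 71.1) and 3 of 19 on S (15.8%, 5.52 to 37.6). Named genes not in pairs stood at 36.4% over L and S together. Within pairs the L copy alone had a distal peak in 5 (25.0%, against 20.1% of all pairs) and the S copy alone in 1 (5.00%, against 15.5%). Both had one in 3 (15.0%, against 25.1%) and neither in 11 (55.0%, against 39.3%). The share with L alone was thus near that of all pairs. A −log10 q of at least 10 is a stricter limit on the evidence for a peak. With it the shares were 7.41% on L (against 6.94% of all L genes) and 5.13% on S (against 6.50% of all S genes). With fold enrichment at or above the median of the list, L copies stood at 18.5%, as did all L genes. S copies then stood at 10.3%, below the share of all S genes. Among stronger peaks L copies were thus close to all L genes. The S shares rest on only 2 copies at the q limit and 4 at the fold limit. Whether S copies stay below all S genes among stronger peaks cannot be decided from so few. The split of distal peaks by subgenome was looked at after the values were seen, and L and S copies are mostly different genes.

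The copies with most peaks within 10 kb were mrpl58.L with 8, mrps18a.L with 7, and mrpl14.L, mrpl47.L, mrpl53.L and mrps7.S with 6 each. mrpl58.L had 2 end peaks and 3 distal ones, the strongest of which, and of all distal peaks of the group, had 19 fragments at 9_10L:46790400-46790556, nearest to atp5pd.L, which encodes a subunit of the ATP synthase. mrpl58.S had 3 distal peaks on the same side, with 14, 8 and 7 fragments, also nearest to atp5pd.S. mrpl14.L had 5 distal peaks and no end peak, the strongest with 17 fragments 3520 bp inside the gene at 5L:24242874-24243247. mrps18a.L had 3 end peaks, the strongest with 15 fragments 14 bp inside the gene.

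Other genes of mitochondrial translation had end peaks about as often, where 47.8% of all protein-coding genes and 60.9% of named ones had one. A list of 8 copies held ribosomal proteins with other names together with malsu1, a factor of large subunit assembly, and ndufab1, the acyl carrier protein and complex I subunit that binds the assembling ribosome with malsu1. Of these copies 6 had an end peak, and the highest values were those of ndufab1, with 27 fragments at L and 21 at S. dap3.L and ptcd3.L, of the small subunit, had 17 each. Assembly and ribosomal RNA factors stood at 20 of 27 (74.1%), with 30 fragments at mettl17.L and 20 at dhx30.S. Translation factors stood at 12 of 15 (80.0%), with 31 at mtif3.L and 17 at mtif2.L, both initiation factors. Aminoacyl-tRNA synthetases stood at 16 of 21 (76.2%).

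Genes that transcribe and copy mitochondrial DNA had end peaks at 12 of 14 copies (85.7%, 60.1 to 96.0, against 60.9% of named genes). Among them was tfam, which packages that DNA and starts its transcription, with 24 fragments at L and 13 at S. polg.L, the DNA polymerase of mitochondria, had no end peak but 6 distal peaks. Distal peaks lay at 9 of the 14 copies (64.3%, 38.8 to 83.7), against 35.9% of all protein-coding genes and 40.9% of named ones. For both end and distal peaks the share of named genes lies within the interval of this list. Nuclear regulators of mitochondrial genes in mammals had end peaks at 22 of 24 copies (91.7%, 74.2 to 97.7, against 60.9% of named genes). They had distal peaks at 14 (58.3%, 38.8 to 75.5), an interval that holds the 40.9% of named genes. Among them yy1.L and nfyb.S had 36 fragments, and sp1 had 33 at L and 33 at S. nrf1 had 13 at L and 17 at S, and gabpa had 11 at S and no end peak at L. Distal peaks lay at 10 of 27 assembly factors (37.0%, 21.5 to 55.8), 4 of 15 translation factors (26.7%, 10.9 to 52.0) and 6 of 21 synthetases (28.6%, 13.8 to 50.0). The share of all protein-coding genes lies within the intervals of assembly factors, translation factors and synthetases.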

How the data were processed

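Stage 9 animal caps were profiled by ATAC-seq. The authors used Bowtie2 2.4.2 for mapping to X. laevis v10.1, filtered on mapping quality and short fragment size, and ran MACS2 2.2.7.1 on the pooled stage 9 libraries with CUT&RUN libraries made without antibody as the control. Pooling weights each library by its depth. bedtools 2.30.0 is also named. For each peak the deposited list holds the fold enrichment (a ratio), a score, the summit offset, and the p-value and q-value, both as −log10. Fold and p-value were inverted, with the MACS2 pseudocount of 1, to whole fragments at the summit. A single solution was found for 99.294% of peaks within a relative tolerance of 0.0001, 410 peaks had 2 solutions, of which only the one not below the genome-wide background was used, and 1 peak had none. The Poisson intervals hold only the counting error of fragments, and PCR was done without molecular identifiers. The Wilson intervals treat gene copies as independent, though some copies, such as mrpl46.L and mrps11.L, share their peaks.

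Gene coordinates were those of the RefSeq table of v10.1 (start and end, no strand). Distances to transcription start sites, promoter motifs and sequences were therefore not used here. Peaks were placed by their summit. The planned design had no test, since there is 1 pooled list without replicates and genes are not replicates. Named copies were the 10 strongest, pairs with an end peak at 1 copy alone or at neither, the 5 with most peaks (6 with ties), single copies without an end peak and copies whose strongest peak was nearer to a neighbour, and neighbours and pathway genes named beyond these were chosen after their values were seen. The gene group and lists were chosen with earlier results of these data known. The alternatives for distal peaks by subgenome and for neighbours were chosen after seeing the data. Scripts were tested on simulated data and used Python 3.11.15, numpy 2.4.6, pandas 2.3.3 and scipy 1.17.1.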

Additional observations from a re-analysis of the deposited data

How the results depend on the processing

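Counts changed most with the peak threshold. With a −log10 q of at least 10, 31 copies kept an end peak (17 on L, 14 on S), which is 33.3% against 22.9% of all protein-coding genes. A distal peak then lay at 6 copies (6.45%, against 6.76%), 4 on L (7.41%, against 6.94%) and 2 on S (5.13%, against 6.50%). Pairs with both, L alone and neither then numbered 3, 1 and 11, and 13.5% of all pairs had L alone. With fold enrichment at or above the median, 38.3% of all protein-coding genes had an end peak, against 53.8% of mitochondrial ribosomal protein genes. Distal peaks then lay at 14 copies, 10 on L (18.5%, against 18.5%) and 4 on S (10.3%, below the share of all S genes). Pairs with S alone and neither numbered 3 and 7, and 10.7% of all pairs had S alone. With only peaks nearest to the gene's own end, pairs with both and L alone numbered 5 and 7, and 12.1% of all pairs had L alone. The share of all protein-coding genes with an end peak was then 44.9%. For pairs with both and with neither, the shares over all pairs at these settings are not given here. Within 50 kb, distal peaks lay at 65 copies (69.9%, against 68.3% of all protein-coding genes). These were 44 on L (81.5%, against 68.6%) and 21 on S (53.8%, against 68.0%). Within 5 kb they lay at 3 S copies (7.69%, against 25.4% of all S genes). The share of all protein-coding genes with an end peak was 44.6% within 500 bp and 50.5% within 2 kb of an end, 60.9% among named genes and 62.8% among genes in pairs. The other 47 values stayed within 1.5 times the reported count or inside its interval. Mitochondrial ribosomal protein genes had a higher share with an end peak than all protein-coding genes under each window, threshold and placement tried. That background includes genes with LOC numbers, whereas all members have a name. Named genes were counted under the main settings only, so the comparison with them was not tested under the alternatives. No paired analysis was possible because the peak list pools all replicates. Depth limits copies called by under 10 fragments, and a copy without a peak may lie just below the threshold.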
